A study of Mus musculus with 6 samples.

Results

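The actin cytoskeleton genes described here are 48 of the 23420 genes in a count table of the mouse lens transition zone, chosen by symbol from the machinery that builds, caps, bundles, contracts and anchors actin filaments. All 48 symbols were found in the table, and all 48 passed the filter on low counts. The transition zone lies at the lens equator, where epithelial cells leave the cell cycle and start to elongate as fibre cells. RNA was sequenced at E14.5 from 3 mutant libraries and 3 control libraries. Mutant embryos carried the Le-Cre transgene with Etv4-/-, Etv5fl/fl and Etv1 fl/fl alleles, so the 3 genes of the Pea3 family of ETS transcription factors were targeted together. Control embryos, titled wildtype in the labels, carried Le-Cre as well, so Cre was present in both groups. In Le-Cre a Pax6 regulatory region drives Cre in the head surface ectoderm, the source of the lens, so the floxed genes are left intact in cells of other origin, whereas the Etv4 alleles are null in every cell. The strain is labelled mixed background, and the labels do not say whether a library came from 1 embryo or a pool. The p-values therefore measure the spread between these libraries.

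Actin monomers assemble into polar filaments whose fast-growing ends are fed by profilin and capped by capping protein. The Arp2/3 complex starts branches on the sides of filaments, while cofilins cut old filaments. Tropomyosins and tropomodulins stabilise them, and non-muscle myosin II pulls on them. In the lens this machinery shapes the elongating fibre cell, and a membrane skeleton of spectrin and short actin filaments, capped by tropomodulin 1, keeps mature fibres in order. Filament assembly also feeds back on transcription through serum response factor (SRF), whose binding site is the CArG box.

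Summed counts lay between 13364742 and 17301168 per library. The defining markers of the lens were present in every library, with the fibre list summing to at least 161000 CPM (counts per 1000000 counts of the library) and the epithelial list to at least 187 CPM. The lens content was uneven within both groups: the crystallin genes took 21.7%, 32.2% and 19.5% of the counts in mutant libraries 1, 2 and 3, against 37.6%, 30.2% and 21.8% in control libraries 1, 2 and 3. Foxe3, a transcription factor gene of the lens epithelium, stood at 152, 39.8 and 156 CPM in mutant libraries and at 51.2, 214 and 283 CPM in control libraries. Mutant library 2 and control library 1 thus had the most crystallin and the least Foxe3 RNA of their groups. Sex-linked genes set mutant library 1 apart, with Xist at 711 counts and Ddx3y at 2 counts, while Ddx3y had at least 521 counts in each other library, so its tissue differed in sex. Etv1, a targeted gene, averaged 26.5 CPM ± 4.25 in mutant and 57.4 CPM ± 12.7 in control libraries (SD, n = 3 each), a log2 fold change of -1.11 ± 0.21 (SE; adjusted p = 0.0319 in edgeR). Etv5 lay just outside the threshold, at a log2 fold change of -0.93 ± 0.19 (SE; adjusted p = 0.0503 in edgeR), and DESeq2 called it lower. Etv4 had a log2 fold change of 0.64 ± 0.36 without passing (SE; adjusted p = 0.427 in edgeR). The counts per gene can include exons that a deletion leaves in place.

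Among the 48 genes, Csrp1 rose and Capzb fell in mutant libraries, and the other 46 did not pass the threshold, a Benjamini-Hochberg adjusted p under 0.05 over all 12257 tested genes in edgeR's quasi-likelihood test. The share called in either direction was 4.17% of the 48 genes, against 2.22% of all tested genes, of which 1.14% were higher and 1.08% lower. With 2 genes called, the count stands near that background. Log2 fold changes (mutant over control) of the 48 genes ran between -1.17 and 1.79, with a median of 0.14 against 0.00 over all tested genes. Of the 48, 31 had positive and 17 negative values, or 64.6% positive against 50.2% of all tested genes. For 12 of the 48 genes every mutant library lay on 1 side of every control library, 7 of them higher and 5 lower in mutant libraries, which is 25% against 22.7% of all tested genes (11.4% higher and 11.3% lower). At an unadjusted p under 0.05 there were 9 of 48 genes, or 18.8%, against 16.2% of all tested genes. The 48 genes and their roles were chosen with earlier results of these data known, so such shares describe them only.

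**Figure D1:**
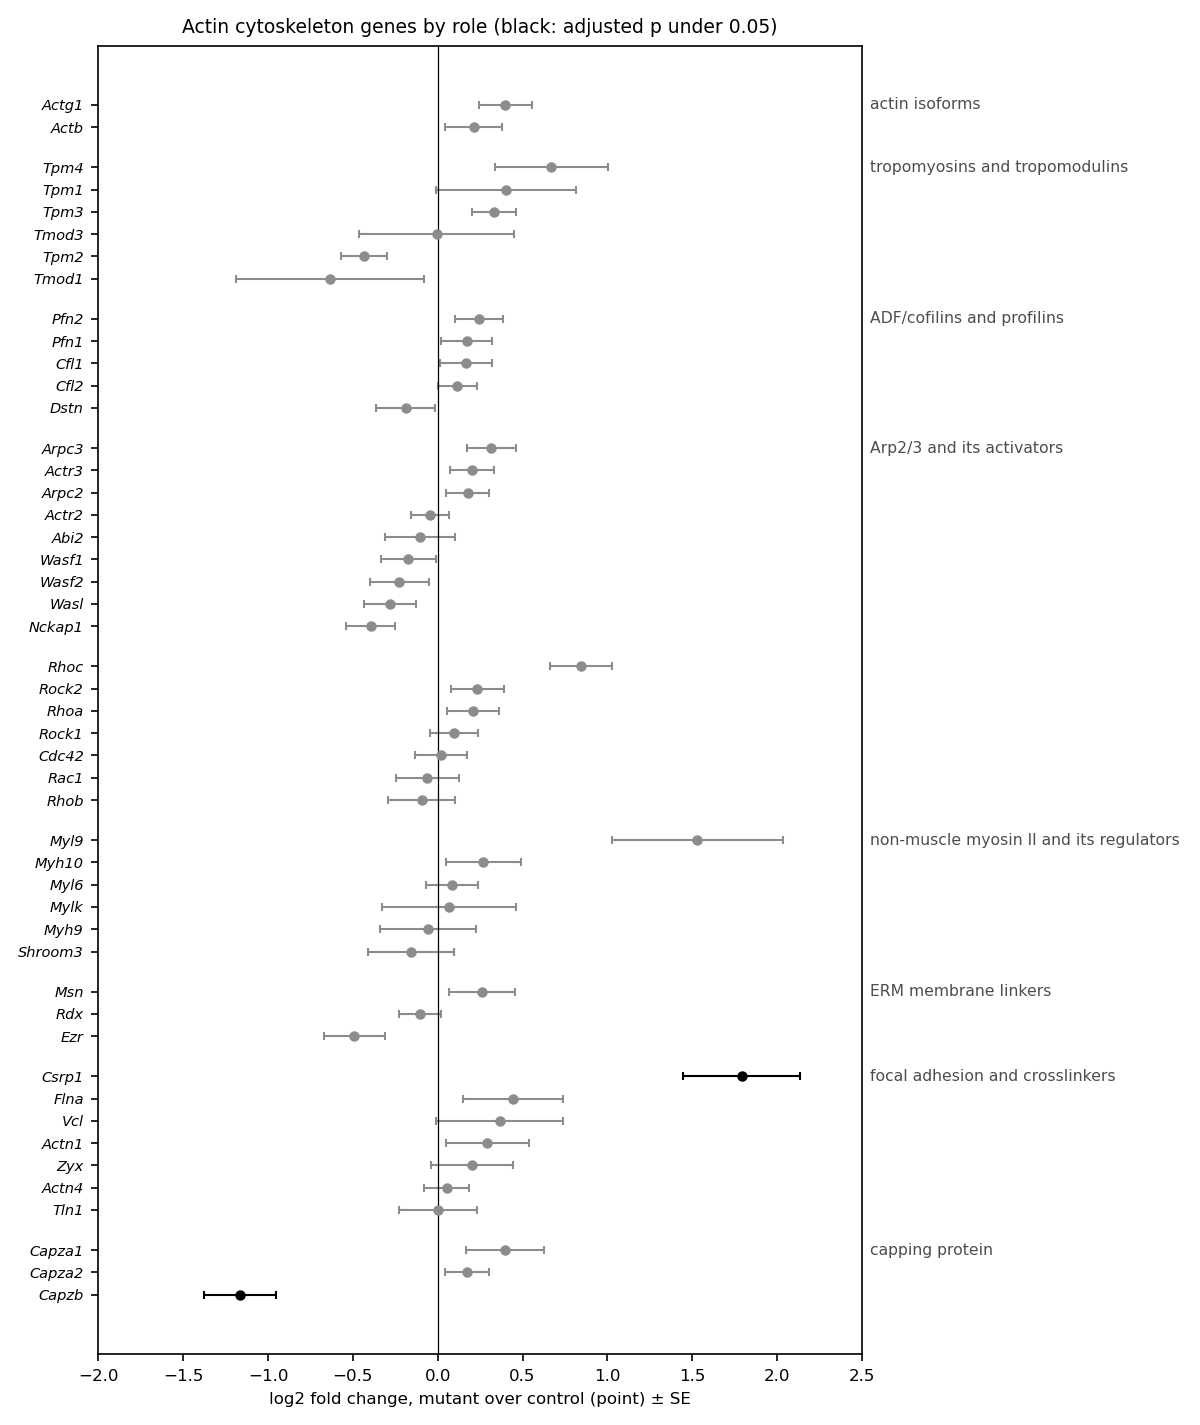
Log2 fold change of each of the 48 genes, mutant over control, on the horizontal axis, ordered within its role; points are edgeR estimates from 3 mutant and 3 control libraries, and bars are ± SE. Csrp1 at 1.79 and Capzb at -1.17, in black, are the 2 genes with an adjusted p under 0.05, and most of the others lie within 0.5 of 0.

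The promoters of both called genes are shown first, with those of Myl9 and Actg1, 2 of the 4 genes with a match to the SRF site. Each run covers 250 bases before and 25 bases after a transcription start, from RefSeq on GRCm38.p6, read along the gene's own strand. Capitals mark a match to CCGGAA, the core that ETS factors of the Pea3 family can bind (both strands searched), or to the CArG box. The 2 motifs do not overlap in these windows. Csrp1 has 2 annotated starts, at chr1:135728917-135729191 and chr1:135719813-135720087, both on the plus strand.
Csrp1 start 1: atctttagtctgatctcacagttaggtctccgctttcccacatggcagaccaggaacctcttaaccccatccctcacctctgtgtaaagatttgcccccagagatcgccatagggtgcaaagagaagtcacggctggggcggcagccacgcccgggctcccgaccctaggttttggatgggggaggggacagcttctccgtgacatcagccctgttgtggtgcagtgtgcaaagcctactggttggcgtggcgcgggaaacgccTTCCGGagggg
Csrp1 start 2: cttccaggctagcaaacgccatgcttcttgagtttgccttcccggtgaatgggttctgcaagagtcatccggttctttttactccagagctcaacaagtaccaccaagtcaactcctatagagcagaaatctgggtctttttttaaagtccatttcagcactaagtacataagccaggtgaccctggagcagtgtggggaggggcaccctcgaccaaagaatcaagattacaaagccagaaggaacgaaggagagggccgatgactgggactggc
The Capzb window lies at chr4:139193861-139194135 on the plus strand.
Capzb: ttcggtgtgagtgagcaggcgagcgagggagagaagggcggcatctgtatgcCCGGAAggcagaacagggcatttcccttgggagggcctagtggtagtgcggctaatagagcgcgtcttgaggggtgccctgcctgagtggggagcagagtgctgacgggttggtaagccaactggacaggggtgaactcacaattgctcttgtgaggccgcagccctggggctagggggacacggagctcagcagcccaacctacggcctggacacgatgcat
The Myl9 window lies at chr2:156775214-156775488 on the plus strand, and that of Actg1 at chr11:120348471-120348745 on the minus strand.
Myl9: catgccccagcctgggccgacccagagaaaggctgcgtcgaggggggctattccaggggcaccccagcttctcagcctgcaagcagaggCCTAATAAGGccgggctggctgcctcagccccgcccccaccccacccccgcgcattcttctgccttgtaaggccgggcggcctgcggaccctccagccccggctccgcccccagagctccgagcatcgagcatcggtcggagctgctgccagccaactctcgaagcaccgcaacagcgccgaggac
Actg1: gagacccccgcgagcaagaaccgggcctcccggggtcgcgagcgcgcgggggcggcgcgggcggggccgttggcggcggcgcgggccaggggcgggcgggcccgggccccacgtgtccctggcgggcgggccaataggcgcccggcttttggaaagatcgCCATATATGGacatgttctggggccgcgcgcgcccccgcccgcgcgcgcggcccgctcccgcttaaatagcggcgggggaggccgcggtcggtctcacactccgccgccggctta

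In the full windows, which run to 50 bases after the start, CCGGAA matched 12 of the 42 genes with a RefSeq window, including both called genes. The match began 198 bases before the start in Capzb and at base 15 after the first start in Csrp1, there on the opposite strand. It was present in 27.1% of the 48 windows of these genes, against 27.2% of the 11820 windows of tested genes and 14.9% of all 32851 windows. The CArG box matched in Actg1, Myl6, Myl9 and Vcl, in 8.33% of these windows against 1.28% of the windows of tested genes and 1.63% of all. The sites of Actg1 and Myl9 began 90 and 161 bases before the start. A match is a description of the letters only. No window was at hand for Actb, Tmod3, Abi2, Nckap1, Rac1 or Rock1.

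Capping protein and the crosslinkers held the 2 called genes. Capping protein is a heterodimer that closes the fast-growing end of a filament, and Capzb encodes its beta subunit. Capzb stood at 142, 184 and 103 CPM in mutant libraries 1, 2 and 3, against 343, 341 and 279 CPM in control libraries. Its highest mutant value lay well below its lowest control value. The gene was 2.25-fold lower in mutant libraries, a log2 fold change of -1.17 ± 0.21 (SE; adjusted p = 0.0296 in edgeR). Of its alpha partners, Capza1 averaged 80.8 CPM ± 15.96 in mutant and 61.3 CPM ± 16.5 in control libraries, and Capza2 288.5 CPM ± 17.7 and 256 CPM ± 28.1 in mutant and control libraries (SD, n = 3 each). Neither alpha gene passed, at log2 fold changes of 0.40 ± 0.23 and 0.17 ± 0.13 (SE; adjusted p = 0.445 and 0.562 in edgeR), and the difference between subunits was not tested. Of the 20 tested genes nearest to Capzb in gene order, Emc1 and Igsf21 were also called, and of the 20 nearest to Csrp1, Tnni1 was. Over all genes placed in that order, 2.22% were called.

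Csrp1 encodes a LIM domain protein that binds alpha-actinin and zyxin and is an SRF target in smooth muscle. It stood at 20.9, 16.3 and 38.8 CPM in mutant libraries 1, 2 and 3, against 9.12, 6.38 and 6.54 CPM in control libraries. Its lowest mutant value was above its highest control value, and mutant library 3 was the highest of all. The gene was 3.46-fold higher in mutant libraries, a log2 fold change of 1.79 ± 0.34 (SE; adjusted p = 0.0371 in edgeR). Counts behind these values were 412, 198 and 711 in mutant and 122, 105 and 118 in control libraries. Both calls were lost when any 1 library other than mutant library 2 was left out, with adjusted p up to 0.183 for Csrp1 and 0.145 for Capzb. Over those 6 fits the log2 fold change of Csrp1 lay between 1.35 and 2.02, and that of Capzb between -1.39 and -0.98.

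Csrp1 was listed with other genes of adhesions and crosslinks. All 7 genes of the adhesion and crosslinker group had log2 fold changes above 0, although that of Tln1 was 0.00 ± 0.23 (SE), and 1 of the 7 passed. Over all tested genes 50.2% had a positive log2 fold change and 2.22% passed. Flna, which encodes the crosslinker filamin A, had the second lowest p of the group. It stood at 211, 159.6 and 286 CPM in mutant libraries, against 103, 171 and 208 CPM in control libraries, and the groups overlapped (log2 fold change 0.44 ± 0.29 (SE); adjusted p = 0.509 in edgeR). Vcl (vinculin, which links adhesion complexes to actin) and Zyx (zyxin) had log2 fold changes of 0.36 ± 0.37 and 0.20 ± 0.24 (SE). The alpha-actinin genes Actn1 and Actn4 had 0.29 ± 0.25 and 0.05 ± 0.13 (SE), without passing.

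**Figure D2:**
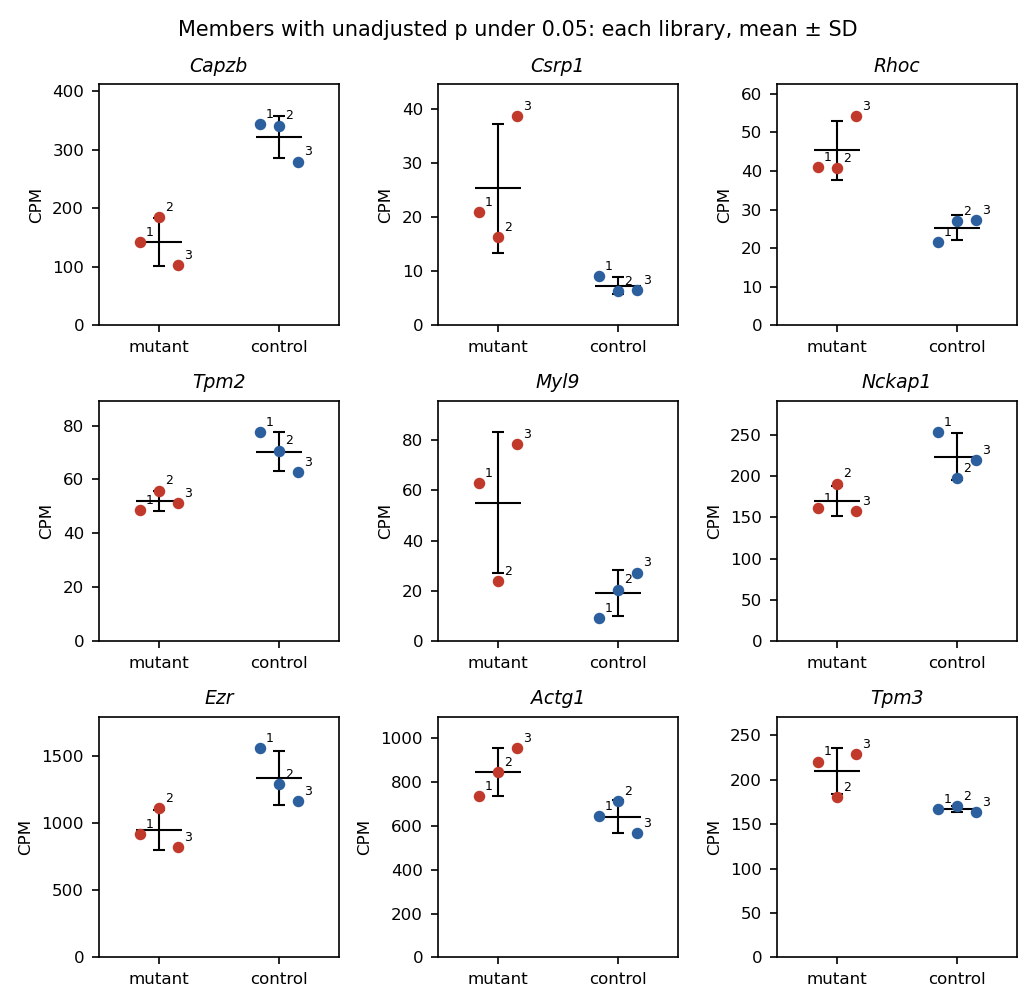
CPM in each library for the 9 genes with an unadjusted p under 0.05, mutant libraries in red on the left and control libraries in blue on the right of each panel; numbers are replicate numbers, and black marks show mean ± SD (n = 3). Csrp1 and Capzb are the 2 genes past the adjusted threshold, the groups of Myl9 overlap, and mutant library 2 lies nearest to the control libraries in most panels.

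Rhoc, a close relative of RhoA that acts on ROCK and formins, stood at 41.1, 40.6 and 54.2 CPM in mutant libraries, against 21.6, 26.9 and 27.3 CPM in control libraries. The groups did not overlap. It was 1.79-fold higher in mutant libraries, with a log2 fold change of 0.84 ± 0.18 (SE; adjusted p = 0.0581 in edgeR), just outside the threshold. Rhoc passed with DESeq2 (adjusted p = 0.00431) and with limma voom (adjusted p = 0.0249).

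Rhoa, the main activator of ROCK, averaged 325 CPM ± 54.2 in mutant and 282 CPM ± 19.5 in control libraries (SD, n = 3 each; log2 fold change 0.21 ± 0.15 (SE)). Rhob, whose product sits on endosomes, had a log2 fold change of -0.10 ± 0.20 (SE). Rac1, the driver of protrusion, stood at 592, 724 and 577 CPM in mutant libraries, against 812, 633 and 532 CPM in control libraries, and its log2 fold change was -0.06 ± 0.19 (SE; adjusted p = 0.903 in edgeR). Its sign turned when control library 1 was left out. Cdc42, a regulator of polarity and filopodia, had 0.02 ± 0.16, and the kinase genes Rock1 and Rock2 had 0.10 ± 0.14 and 0.23 ± 0.16 (SE), none of them past the threshold.

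Of the 6 genes of non-muscle myosin II and its regulators, none passed in edgeR, while Myl9 passed in DESeq2 and limma voom. At an unadjusted p under 0.05 in edgeR there was 1, or 16.7% against 16.2% of all tested genes. Myl9 encodes a regulatory light chain and is a classical SRF target. It stood at 63.0, 23.9 and 78.5 CPM in mutant libraries, against 9.27, 20.6 and 27.3 CPM in control libraries. Mutant libraries 1 and 3 were well above every control library, while mutant library 2 lay below control library 3. The log2 fold change of Myl9 was 1.53 ± 0.51 (SE; adjusted p = 0.195 in edgeR; DESeq2 adjusted p = 0.0113; limma voom adjusted p = 0.0427), and it was 0.88 with the crystallin share as a covariate, where it passed (adjusted p = 0.0233 in edgeR).

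The heavy chain genes Myh9 and Myh10, which encode the motors of myosin IIA and IIB, averaged 26.1 CPM ± 5.88 and 57.7 CPM ± 8.94 in mutant libraries, against 27.2 CPM ± 9.53 and 47.9 CPM ± 13.7 in control libraries (SD, n = 3 each). Myh10 took 68.2%, 71.8% and 67.2% of the summed Myh9 and Myh10 counts in mutant libraries, against 65.9%, 63.7% and 62.7% in control libraries. These shares did not overlap, and the difference of 4.96 percentage points had an exact two-sided permutation p of 0.1, the smallest that 3 against 3 libraries allow (0.3 adjusted over the 3 shares tested). The essential light chain gene Myl6 had a log2 fold change of 0.08 ± 0.16 (SE), whose sign turned without mutant library 3 and with limma voom. Mylk, the light chain kinase gene, was the lowest of the 48 genes per exon length, at 0.734 ± 0.233 CPM per kb in mutant and 0.699 ± 0.246 CPM per kb in control libraries (SD, n = 3 each). Shroom3, which drives apical constriction during lens pit invagination, had a log2 fold change of -0.16 ± 0.25 (SE).

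The actin genes themselves were among the most abundant of the set. Per exon length, Pfn1, Actb, Ezr and Actg1 were the 4 highest of the 48 genes in both groups. Actb averaged 546 ± 40.2 CPM per kb in mutant and 471 ± 86.1 CPM per kb in control libraries (SD, n = 3 each). Actg1, the gene of gamma-actin, stood at 736, 846 and 956 CPM in mutant libraries, against 644, 715 and 566 CPM in control libraries. Its groups did not overlap, and it did not pass at a log2 fold change of 0.40 ± 0.16 (SE; adjusted p = 0.263 in edgeR). Actb, the gene of beta-actin, stood at 960, 1090 and 1097 CPM in mutant libraries, against 788, 1094 and 834 CPM in control libraries (log2 fold change 0.21 ± 0.17 (SE); adjusted p = 0.575 in edgeR). Control library 2 lay within the range of the mutant libraries. The share of Actg1 in the summed counts of both genes averaged 44.5% ± 1.75 in mutant and 41.6% ± 2.94 in control libraries (SD, n = 3 each), with an exact two-sided permutation p of 0.3, also 0.3 when adjusted over the 3 shares. The coding sequences of Actb and Actg1 are near-identical and both have processed copies in the genome, so the split of reads between them is uncertain.

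Tropomyosin genes had log2 fold changes of both signs, none past the threshold in edgeR. Of the 6 tropomyosin and tropomodulin genes 2 had an unadjusted p under 0.05, or 33.3% against 16.2% of all tested genes. DESeq2 and limma voom called 0 of the 6. Tropomyosins are coiled coils along the filament that decide which myosins and severing proteins can bind. Tpm2 stood at 48.8, 55.9 and 51.3 CPM in mutant libraries, against 77.4, 70.7 and 62.9 CPM in control libraries (log2 fold change -0.44 ± 0.14 (SE); adjusted p = 0.161 in edgeR). Tpm3 stood at 220.5, 180.2 and 229 CPM in mutant libraries, against 166, 171 and 163 CPM in control libraries (log2 fold change 0.33 ± 0.13 (SE); adjusted p = 0.263 in edgeR). The groups overlapped in neither gene. Tpm4 and Tpm1 had log2 fold changes of 0.67 ± 0.33 and 0.40 ± 0.41 (SE), with overlap, because mutant library 2, at 73.2 and 35.5 CPM, lay within or below the control range.

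Tmod1 caps the slow-growing filament end in the membrane skeleton of lens fibres. It stood at 21.5, 47.3 and 12.3 CPM in mutant libraries, against 66.2, 38.9 and 20.5 CPM in control libraries. Both groups spread widely and overlapped (log2 fold change -0.64 ± 0.56 (SE); adjusted p = 0.618 in edgeR). Tmod3, its widely expressed relative, averaged 19.0 CPM ± 10.7 in mutant and 19.2 CPM ± 3.91 in control libraries (SD, n = 3 each).

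Of the 5 genes that turn filaments over, none passed in edgeR, and 0 were called by DESeq2 or limma voom. At an unadjusted p under 0.05 there were 0 of the 5, against 16.2% of all tested genes. Pfn1, the profilin gene that was highest of the 48 per exon length, averaged 845 ± 72.7 CPM per kb in mutant and 752 ± 87.8 CPM per kb in control libraries (SD, n = 3 each). Pfn2, the neuronal profilin gene, had a log2 fold change of 0.24 ± 0.14 (SE; adjusted p = 0.439 in edgeR). Cfl1 and Cfl2, which encode the non-muscle and muscle cofilins, had log2 fold changes of 0.17 ± 0.15 and 0.11 ± 0.11, and Dstn, the gene of the related protein destrin, had one of -0.19 ± 0.18 (SE). Cfl2 took 26.2% ± 2.53 of the summed counts of these 3 genes in mutant and 24.0% ± 1.61 in control libraries (SD, n = 3 each; exact two-sided permutation p = 0.3, and 0.3 adjusted over the 3 shares).

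The Arp2/3 complex and its activators likewise had no gene past the threshold in edgeR. Of the 9 genes 1 had an unadjusted p under 0.05, or 11.1% against 16.2% of all tested genes. DESeq2 and limma voom called 0 of the 9. Arpc3, Actr3 and Arpc2, all subunits, had 0.32 ± 0.14, 0.20 ± 0.13 and 0.18 ± 0.13, while the subunit gene Actr2 had -0.05 ± 0.11 (SE). Nckap1, a scaffold subunit of the WAVE complex that switches Arp2/3 on below the membrane, stood at 161, 191 and 157 CPM in mutant libraries, against 253, 197 and 219 CPM in control libraries. Its groups did not overlap (log2 fold change -0.40 ± 0.14 (SE); adjusted p = 0.224 in edgeR). The activator genes Wasl (N-WASP), Wasf2 and Wasf1 (WAVE proteins) had -0.28 ± 0.15, -0.23 ± 0.18 and -0.17 ± 0.16 (SE). Abi2, a WAVE subunit with a known role in lens fibre shape in mice, stood at 247, 388 and 251 CPM in mutant libraries, against 375, 275 and 302 CPM in control libraries (log2 fold change -0.10 ± 0.21 (SE); adjusted p = 0.850 in edgeR), and its sign turned when mutant library 1 or 3 or control library 1 was left out.

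Proteins of the ezrin, radixin and moesin family tie filaments to the plasma membrane. Ezr, the third highest of the 48 genes per exon length in control libraries, stood at 917, 1114 and 824 CPM in mutant libraries, against 1561, 1290 and 1166 CPM in control libraries. The groups did not overlap, and the gene was 1.41-fold lower in mutant libraries without passing (log2 fold change -0.49 ± 0.18 (SE); adjusted p = 0.226 in edgeR). Of the 20 tested genes nearest to Ezr in gene order, 3 were called, namely Dynlt1b, Tmem181b-ps and Rps6ka2, where 2.22% of all placed genes were called. Msn and Rdx had log2 fold changes of 0.26 ± 0.20 and -0.10 ± 0.12 (SE).

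Mutant library 2 and control library 1, the libraries with the most crystallin RNA of their groups, were both the lowest of their groups for 16 of the 48 genes, or 33.3%, against 22% of all tested genes. Among these were Tpm1, Tpm4, Myl9, Rhoc, Vcl, Flna, Zyx, Msn, Myh9, Myh10 and Capza1. Both libraries were the highest of their groups for 7 genes, or 14.6% against 21.5% of all tested genes: Tpm2, Tmod1, Abi2, Nckap1, Rac1, Ezr and Capzb. This way of reading the libraries was chosen after seeing the data. Without these 2 libraries, edgeR called Csrp1, Myl9, Rhoc and Tpm4 higher and Capzb lower. That fit also called more genes over the whole table, 1031 of 12543 tested genes against 272 of 12257 with all libraries. Per library, the median over the 48 genes of log2(CPM + 0.5), taken relative to each gene's control mean, was 0.21, 0.04 and 0.22 in mutant libraries 1, 2 and 3, against -0.04, 0.06 and -0.03 in control libraries. The part of lens content in these differences was not tested beyond the fit with the crystallin share as a covariate, where the median log2 fold change was 0.05.

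**Figure D3:**
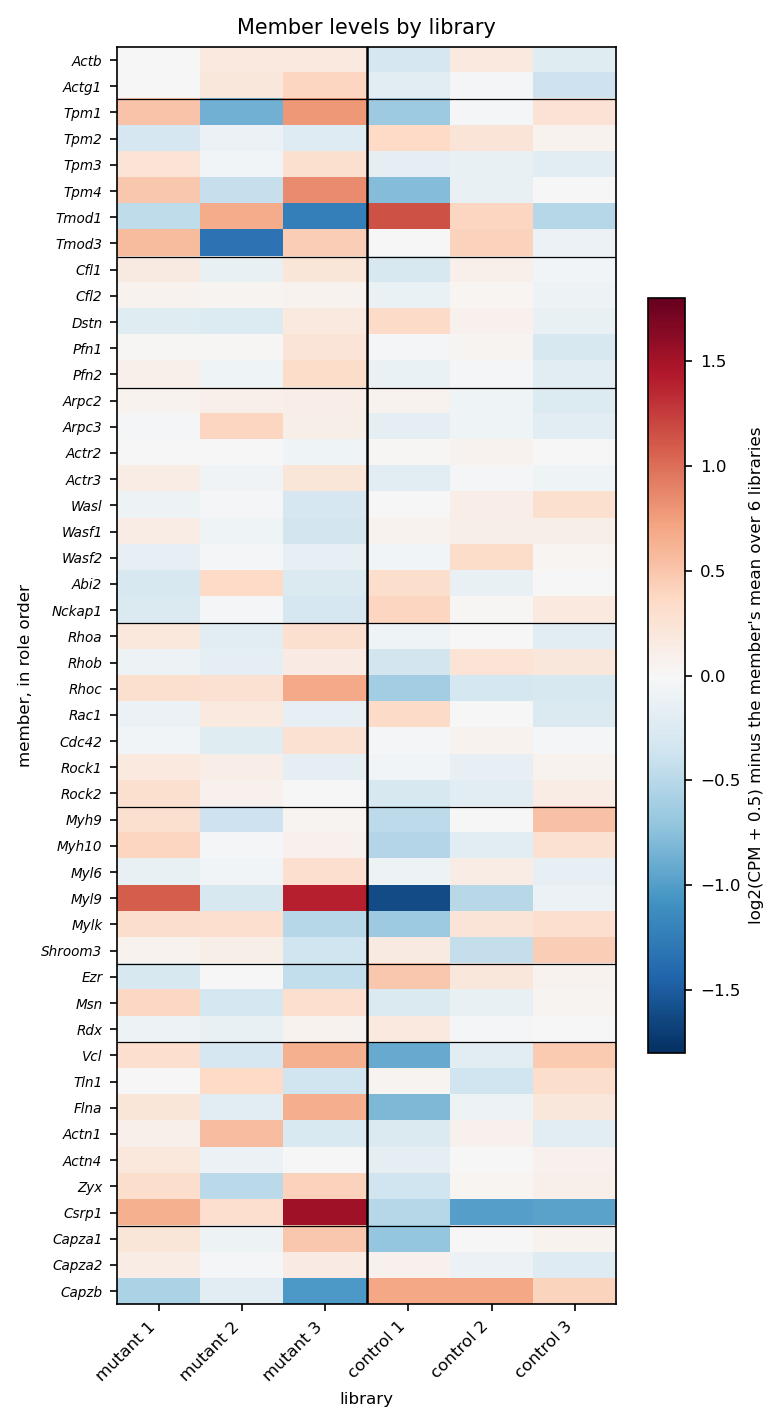
Colour shows log2(CPM + 0.5) minus the gene's mean over the 6 libraries for each of the 48 genes (rows, in role order, with lines between roles) in each library (columns, mutant left of the black line and control right of it). Csrp1, Myl9 and Rhoc are higher and Capzb lower on the mutant side, and mutant library 2 departs from mutant libraries 1 and 3 for Tpm1, Tpm4, Tmod1, Tmod3 and Myl9.

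Other genes of the actin machinery were listed in 6 groups, of which 155 genes are not among the 48, and 138 of these were tested. The lists were chosen with earlier results of these data known, so the shares of called genes in them are descriptions only. Tagln2 and Capg rose, Ank3, Epb4.1 and Epb4.1l3 fell, and 133 did not pass, so that 3.62% were called against 2.22% of all tested genes. Their median log2 fold change was 0.01. Among 28 tested genes of monomer binding, severing and bundling, 2 rose, or 7.14% against 2.22% of all tested genes. At an unadjusted p under 0.05 in edgeR there were 5, or 17.9% against 16.2% of all tested genes. Tagln2, which encodes transgelin 2, an actin bundler of non-muscle cells, stood at 30.4, 38.9 and 51.2 CPM in mutant libraries, against 7.47, 2.61 and 4.43 CPM in control libraries, a log2 fold change of 3.06 ± 0.39 (SE; adjusted p = 0.00813 in edgeR). It passed in each of the 15 alternatives. Capg, which encodes a capping protein of the gelsolin family that is abundant in macrophages, stood at 6.55, 7.83 and 10.3 CPM in mutant libraries, against 1.05, 1.22 and 0.222 CPM in control libraries (log2 fold change 3.32 ± 0.57 (SE); adjusted p = 0.0226 in edgeR). The summed level of 5 macrophage markers was 22.4, 3.52 and 20.4 CPM in mutant libraries, against 5.04, 2.34 and 0.866 CPM in control libraries. Of the 3 that could be tested, edgeR called 0 and 2 had an unadjusted p under 0.05, against 16.2% of all tested genes. DESeq2 called 0 and limma voom 1, tools that called 6.26% and 6.59% of all genes they tested. The part of macrophage RNA in the values of Capg was not tested.

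The membrane skeleton, the spectrin and actin lattice under the plasma membrane, held the called decreases. Of 33 tested genes in the list of myosins and membrane skeleton, 3 fell and 30 did not pass (9.09% called, against 2.22% of all tested genes), with a median log2 fold change of -0.24. At an unadjusted p under 0.05 there were 14, or 42.4% against 16.2% of all tested genes, 10 of them lower and 4 higher in mutant libraries. The list was chosen with earlier results of these data known, so these shares describe it and are no test of it. DESeq2 called 9 and limma voom 8 of the 33, tools that called 6.26% and 6.59% of all genes they tested. Among those 9, Myl12a, Myo10 and Shroom2 went the other way, with log2 fold changes of 0.91, 1.42 and 0.84 in edgeR. Ank3, which encodes the membrane anchor ankyrin G, stood at 16.9, 14.4 and 14.3 CPM in mutant libraries, against 46.1, 85.9 and 144 CPM in control libraries, a 6.03-fold decrease (log2 fold change -2.59 ± 0.39 (SE); adjusted p = 0.0175 in edgeR). Epb4.1, the gene of protein 4.1R, which joins spectrin to actin, stood at 56.9, 75.4 and 51.8 CPM in mutant libraries, against 187, 132 and 118 CPM in control libraries (log2 fold change -1.25 ± 0.21 (SE); adjusted p = 0.0226 in edgeR). Its relative Epb4.1l3 stood at 106, 137 and 86.0 CPM in mutant libraries, against 278, 202 and 199 CPM in control libraries (log2 fold change -1.05 ± 0.21 (SE); adjusted p = 0.0393 in edgeR). Within each group the libraries rich in crystallin were highest for Epb4.1 and Epb4.1l3, and control library 1 was lowest for Ank3. The calls for Ank3, Epb4.1, Epb4.1l3 and Capg were lost without mutant library 1 or 3 or control library 2, and that of Epb4.1l3 also without control library 1 or 3. Of the 20 tested genes nearest in gene order, 2 were called for Ank3 and 2 for Epb4.1. For Epb4.1l3, Tagln2 and Capg 1 of 20 was called each, where 2.22% of all placed genes were called.

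Of 13 tested Arp2/3 and WAVE subunits 0 passed in edgeR, against 2.22% of all tested genes, and 5 had an unadjusted p under 0.05, or 38.5% against 16.2%. Among them, the subunit genes Arpc1b and Cyfip1 had log2 fold changes of 0.99 ± 0.21 and 0.56 ± 0.13 (SE; adjusted p = 0.0537 and 0.0770 in edgeR). Both were past the threshold with DESeq2 and with limma voom. Of the 5 genes, 4 were higher and 1 was lower, Cyfip2, at -0.50 ± 0.15 (SE; adjusted p = 0.142 in edgeR). Limk2, the gene of a kinase that inactivates cofilin, stood at 74.1, 58.6 and 77.4 CPM in mutant libraries, against 39.8, 43.4 and 44.95 CPM in control libraries. Its adjusted p of 0.05004 in edgeR lay just outside the threshold (log2 fold change 0.71 ± 0.15 (SE)), and 8 of 15 alternatives called it. Baiap2, whose product IRSp53 bends membranes for Rac and Cdc42, had 1.54 ± 0.33 (SE; adjusted p = 0.0571 in edgeR). Of 13 tested formin and Ena/VASP genes 0 passed in edgeR, and 3 had an unadjusted p under 0.05, or 23.1% against 16.2% of all tested genes, with Fmnl2 at 0.63 ± 0.21 and Evl at -0.40 ± 0.17 (SE), and DESeq2 and limma voom called 0 of the 13.

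The list of SRF, its MRTF coactivators and their classical targets shares 9 genes with the 48. Of its 16 tested genes 1 passed in edgeR, Csrp1, or 6.25% against 2.22% of all tested genes. The median log2 fold change was 0.25. DESeq2 also called Myl9, Tagln and Acta2, and it called 6.26% of all genes it tested. Limma voom called Csrp1, Myl9 and 1 of the 7 tested genes outside the 48, and it called 6.59% of all genes it tested. Tagln, the gene of transgelin in smooth muscle, stood at 6.75, 1.73 and 18.3 CPM in mutant libraries, against 0.748, 0.668 and 0.443 CPM in control libraries (log2 fold change 3.85 ± 0.84 (SE); adjusted p = 0.0664 in edgeR). Acta2, the gene of smooth muscle actin, was named after its values were seen. It stood at 75.2, 20.6 and 186 CPM in mutant libraries, against 2.32, 12.6 and 4.43 CPM in control libraries (log2 fold change 3.85 ± 0.89 (SE); adjusted p = 0.0818 in edgeR). For both genes mutant library 3 was highest and mutant library 2 lowest of the mutant libraries, and the groups did not overlap. Other targets, Ctgf and Cyr61, had -0.08 ± 0.70 and -0.48 ± 0.87, and Srf itself had 0.14 ± 0.21 (SE).

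Markers of smooth and striated muscle were examined because several of these genes are also muscle genes. The summed level of 10 such markers was 99.2, 23.9 and 241.7 CPM in mutant libraries, against 3.90, 18.96 and 6.06 CPM in control libraries. Acta2 alone gave 85.6, 18.7 and 207.4 CPM of these sums in mutant libraries and 1.86, 12.2 and 4.95 CPM in control libraries. The defining smooth muscle markers Myh11 and Cnn1 had 3 and 0 counts over all 6 libraries, which leaves Cnn1 below 0.224 CPM in the shallowest library (3 counts). Of the 5 muscle markers that could be tested, edgeR called 0 (3 at an unadjusted p under 0.05), while DESeq2 called Acta2, Tagln and Des, and limma voom called 2 genes. The part of muscle RNA in the values of Csrp1, Myl9, Tpm1 and Tpm4 was not tested. Fibroblast and mesenchyme markers (8 genes) summed to 189.6, 87.6 and 193 CPM in mutant libraries, against 44.1, 112 and 174 CPM in control libraries. Pdgfra alone gave 173.7, 81.9 and 181.9 CPM in mutant libraries and 34.2, 92.6 and 170.3 CPM in control libraries. The sums were lowest in mutant library 2 and control library 1, in the order of Pdgfra. The other markers did not share this order. Col1a2, Col3a1, Pdgfrb and Lum were lower in control library 3 than in control library 1, while Col1a1, Twist1 and Prrx1 were higher. Foxe3, Pax6, Cdh1 and Pdpn, the lens epithelium list, were also each lowest in mutant library 2 and control library 1 of their groups. Pdgfra made up most of the fibroblast and mesenchyme sums, and the cell type its RNA came from was not tested. Of the 5 fibroblast and mesenchyme markers tested, edgeR called 0 (2 at an unadjusted p under 0.05). DESeq2 called Twist1 higher and Col3a1 lower, and limma voom called 0. The part of these markers in the results was not tested either. Fewer cells of a type and less RNA per cell cannot be told apart in these bulk libraries.

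**Figure D4:**
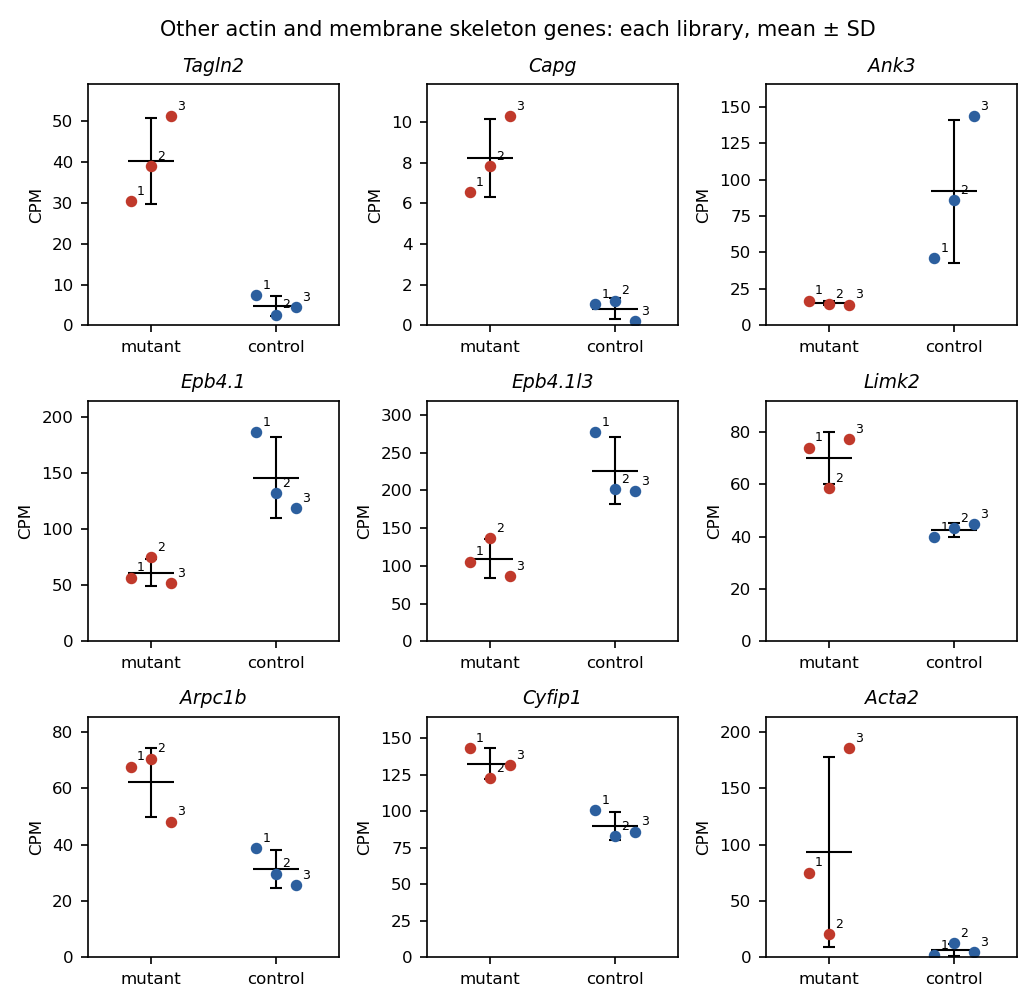
CPM in each library for 9 other actin and membrane skeleton genes, mutant libraries in red on the left and control libraries in blue on the right of each panel; numbers are replicate numbers, and black marks show mean ± SD (n = 3). Tagln2, Capg, Ank3, Epb4.1 and Epb4.1l3 passed the threshold, while Limk2, Arpc1b, Cyfip1 and Acta2 did not although their groups do not overlap.

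The authors' deposited table gives an adjusted p under 0.05 to 4 of the 48 genes, against 6.11% of the 13644 genes with an adjusted p there. In the authors' deposited table Csrp1, Myl9 and Rhoc were higher in mutant libraries, at log2 fold changes of 1.70, 1.43 and 0.83, and Capzb was lower, at -1.15. DESeq2 and limma voom called these same 4 genes, against 6.26% and 6.59% of all genes they tested. All 48 genes had the same sign in the authors' deposited table as in edgeR.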

How the data were processed

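RNA of 6 libraries was amplified with a SMART-seq v4 ultra-low input kit and made into libraries with Nextera XT, per the labels' protocols. Such a kit carries no strand mark and no molecular identifiers, so overlapping genes may share reads, and counting floors cover counting error only. Per the submitters' processing notes, the build was mm9 and the tools included TopHat, Cufflinks, DESeq and bcl2fastq 1.8.4. Which of these did the counting, with which annotation, is not given in the sources used here. One count per gene symbol and library, not normalized, was deposited by the authors; the table of all libraries and the files per library differed at 0 genes. The authors also deposited a table with a mean signal of normalized counts, log2 fold changes, standard errors, a test score and p-values.

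Counts were fitted in edgeR 4.0.16 (R 4.3.3) over the whole table. After filterByExpr (at a minimum count of 10 and a total of 15) and TMM scaling, groups were compared by the quasi-likelihood F test with robust settings and no covariate, adjusted over 12257 genes. Standard errors come from the F statistic, and CPM values use the TMM factors, except marker sums, which use the library totals. The procedure was tested on simulated data. Levels per kb use exon lengths of protein-coding transcripts in GENCODE vM21 (basic), an annotation of another build than the authors'. RefSeq gene order on GRCm38.p6 gave the 10 tested neighbours on each side. In the shallowest library 1 count stood for 0.0824 CPM on the TMM scale.

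The genes, role groups and lists were chosen with earlier results of these data known. Named were every gene of the 48 past the threshold; in each role the 2 of lowest p and the most abundant; and in each further list up to 4 that passed, or the 2 of lowest p. The other genes of the 48 are given to account for the set, and Acta2, Ctgf, Cyr61 and Srf were added after their values were seen. No libraries of a group agreed within sampling noise (their chi-square was at least 28.1 per degree of freedom). Shares of counts were compared by exact permutation tests. Alternatives were DESeq2 1.42.0, limma 3.58.1 voom with quality weights, other scaling, filters and covariates, a replicate block and leaving out each library. Some results on 1 of the further lists are not reported here.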

Additional observations from a re-analysis of the deposited data

How the results depend on the processing

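The main analysis called 1 of the 48 genes higher and 1 lower. Numbers of genes called higher were 2 without a filter, 0 with the replicate block (3 at an unadjusted p under 0.05 in edgeR), and 3 each with DESeq2, limma voom and the crystallin share as a covariate; leaving out mutant library 2 and control library 1 together, chosen after seeing the data, gave 4. When single libraries were left out, between 0 and 2 genes were called higher and between 0 and 1 lower (edgeR; between 2 and 10 and between 2 and 5 at an unadjusted p under 0.05), where fewer samples entered the fit. The count of genes called lower was 1 in the other alternatives. Calls over the whole table changed as well, from 272 of 12257 tested genes in the main analysis. They were 336 of 17013 without a filter, 821 of 13114 with DESeq2 and 808 of 12257 with limma voom. With the crystallin share as a covariate they were 798 of 12257, and without mutant library 2 and control library 1 they were 1031 of 12543. Fits without a single library called between 91 and 479 genes. The median log2 fold change of the 48 genes was 0.0521 with the crystallin share as a covariate, against 0.14, and between 0.08 and 0.18 when single libraries were left out. With the replicate block Csrp1 had a log2 fold change of 1.70 and lost its call (edgeR adjusted p = 0.0884), as did Capg, Epb4.1 and Epb4.1l3, while Capzb kept it at -1.20 (edgeR adjusted p = 0.0375), and 122 genes were called over the whole table against 272. Deviations of samples with the same number had correlations of -0.331, -0.183 and 0.246 over genes. The highest correlation, 0.473, was between mutant library 2 and control library 1, which had the most crystallin RNA of their groups. The labels state no pairing by number, and these correlations cannot decide it, because with 3 libraries per group differences in lens content also enter them. Signs turned for Abi2 (0.0516 with the covariate, 0.01 without mutant library 1, 0.00 without mutant library 3, and between -0.3526 and 0.0311 when single libraries were left out), Rac1 (0.13 with the covariate, 0.11 without control library 1, a range of -0.1975 to 0.11 when single libraries were left out, 0.01 without mutant library 2 and control library 1) and Myl6 (-0.0275 with limma voom, and between -0.0572 without mutant library 3 and 0.1719 without control library 2); the cause was not tested. The differences in share lay between 1.83 and 4.57 percentage points for Actg1, 1.08 and 3.58 for Cfl2, and 3.59 and 5.90 for Myh10 when single libraries were left out. On the TMM scale each count stood for at most 0.0824 CPM, against 5.66 CPM for Mylk, the lowest control mean of the 48 genes.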
